A study of Mus musculus with 81 samples.

Results

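The 9 genes described here encode the muscarinic acetylcholine receptors (Chrm1, Chrm2, Chrm3, Chrm4 and Chrm5), 3 neuronal nicotinic receptor subunits (Chrna4, Chrna7 and Chrnb2) and acetylcholinesterase (Ache). They were chosen by name, with no measured value in the rule, and were matched through Gencode gene identifiers to 9 of the 57010 identifiers in the count matrices. Each symbol belonged to a single identifier.

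Acetylcholine reaches the hippocampus mainly through fibres of the medial septum and diagonal band. Chrm1, Chrm3 and Chrm5 couple to Gq and phospholipase C, while Chrm2 and Chrm4 couple to Gi/o and hold back adenylyl cyclase. Nicotinic receptors are cation channels of assembled subunits, Chrna7 subunits can form a channel on their own, Chrna4 assembles with Chrnb2, and Ache ends the signal by splitting acetylcholine into choline and acetate.

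RNA-seq was performed on CA1 pyramidal neurons (CA1 PNs), CA3 pyramidal neurons (CA3 PNs) and dentate granule cells (DGCs) taken by laser capture microdissection (LCM) from Nissl-stained hippocampal sections of 28 male mice at 6 months of age (6 MO). Ts65Dn mice (Ts), a Down syndrome model that carries an extra chromosome made of segments of mouse chromosomes 16 and 17, were compared with disomic (2N) controls. All mice had Ts65Dn dams, which were fed choline normal (ChN, 1.1 g/kg) or choline supplemented (ChP, 5.0 g/kg) chow from gestation to weaning. The 35 ChN libraries came from 6 Ts and 6 2N mice and the 46 ChP libraries from 9 Ts and 7 2N mice, and 25 of the 28 mice gave a library of all 3 populations. On ChN there were 6 2N and 5 Ts libraries of CA1 PNs, 6 and 6 of CA3 PNs and 6 and 6 of DGCs. On ChP there were 7 2N and 9 Ts libraries of CA1 PNs, 7 and 7 of CA3 PNs and 7 and 9 of DGCs. Groups of packed neurons were captured together, so a library can hold neighbouring cells, and in such bulk samples fewer cells of a type and less RNA per cell cannot be told apart.

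Library totals ran from 358355 to 4744036 expected counts (median 1105133), and 1 count was worth 0.243 to 2.49 CPM (counts scaled to library size) on the trimmed mean of M-values (TMM) scale used for the CPM of single genes below. Summed CPM of marker lists were scaled by library totals alone. Marker genes of each captured population led in its own libraries, with exceptions. In 10 of the 27 CA1 libraries the mean log2 CPM of 5 CA2 pyramidal neuron markers was 5.63 to 7.84, against 2.01 to 3.54 in the other 17. In 3 of the 10 the mean of the 5 CA1 markers was low, at 2.92 (mouse 17-21), 2.74 (16-272) and 5.05 (15-336), where the other 17 began at 7.50, so these libraries go against their label. The CA3 library of mouse 15-140 held dentate markers at a mean log2 CPM of 4.98, where the median CA3 library had 2.58. For mouse 15-145 the label of the CA3 library says Ts and those of its CA1 and DGC libraries say 2N. The CA3 library's mean log2 CPM over 58 triplicated genes was 5.39, where CA3 libraries labelled Ts had 5.70 to 5.88, and it was used as 2N. The CA1 library of mouse 17-154, labelled 2N, had a mean of 5.90, where the other CA1 libraries labelled 2N reached 5.43 and those labelled Ts on ChN began at 5.80. It was kept as 2N.

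None of the 9 genes lies on mouse chromosome 16 or 17. In GRCm39, Chrm1 lies on chromosome 19 (8640962 to 8662278, plus strand), Chrm2 on chromosome 6 (36364718 to 36505582, plus strand) and Chrm3 on chromosome 13 (9925522 to 10410883, minus strand). Chromosome 2 carries Chrm4 (91757594 to 91759033, plus strand), Chrm5 (112309516 to 112311114, minus strand) and Chrna4 (180660173 to 180685339, minus strand). Chrna7 lies on chromosome 7 (62731494 to 62862322, minus strand), Chrnb2 on chromosome 3 (89653502 to 89671953, minus strand) and Ache on chromosome 5 (137285781 to 137292728, plus strand). Each muscarinic receptor has its coding sequence in 1 exon, while Chrna4 has 7 coding exons, Chrna7 10, Chrnb2 6 and Ache 4. The deposited lengths of Chrm4 (1440 bases) and Chrm5 (1599 bases) equal their coding models, so reads from their untranslated ends were outside the counted model. Genes on the other strand overlap Chrm1, Chrm2, Chrm3, Chrnb2 and Ache, and whether the counting used strand was not given in the sources used here, so reads of the partners cannot be told apart for these genes.

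The clearest separation was between the pyramidal populations and DGCs. Chrm3, Chrm4 and Ache were higher in CA1 PNs and in CA3 PNs than in DGCs in 25 of 25 mice with all populations, Chrm2 was close to absent from DGCs, and Chrm5 was found almost only in CA1 PNs. Chrna4 was highest in CA1 PNs in 25 of 25 mice. Chrm1, Chrna7 and Chrnb2 were present in every library, with ranges that overlapped between populations. Differences between populations were tested with edgeR's quasi-likelihood test with the mouse as a block, and p-values were adjusted (Benjamini-Hochberg) over all 20493 genes tested. The CA1 against DGC and CA3 against DGC comparisons share the DGC libraries.

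Chrm1, a Gq-coupled receptor that raises the excitability of principal neurons, was present in every library. Its lowest, median and highest CPM were 343, 402 and 485 in the 27 CA1 libraries, 274, 352 and 430.1 in the 26 CA3 libraries, and 266, 345 and 429.9 in the 28 DGC libraries. All 3 ranges overlapped, and the order of the medians was CA1 PNs, CA3 PNs, DGCs. CA1 PNs were above CA3 PNs by a log2 fold change (LFC) of 0.19 (SE 0.042, adjusted p = 5.29e-05) and above DGCs by 0.22 (SE 0.041, adjusted p = 2.07e-06). CA3 PNs and DGCs were not separated, with an LFC of 0.026 (approximate 95% interval -0.055 to 0.11, adjusted p = 0.622). Scaled by library totals in place of TMM, Chrm1 was 0.060 above DGCs in CA1 PNs, which no longer passed the test, and the CA3 value turned to -0.20, with the median LFC over all genes shifted to -0.17 and -0.26.

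Chrm3, another Gq-coupled receptor, ranged over 107, 215 and 288 CPM (lowest, median, highest) in CA1 PNs, 155, 184.5 and 225 in CA3 PNs, and 0, 1.225 and 5.92 in DGCs. No pyramidal library came near a DGC library: the highest DGC value lay below the lowest pyramidal value, and 9 of the 28 DGC libraries had no count. The LFC over DGCs was 7.13 (SE 0.14, adjusted p = 4.28e-44) for CA1 PNs and 6.975 (SE 0.15, adjusted p = 1.54e-43) for CA3 PNs, which are 140-fold and 126-fold. CA1 and CA3 PNs differed by an LFC of 0.16 (SE 0.076, adjusted p = 0.0918), which did not pass, and by 0.32 (adjusted p = 4.18e-06) without the 10 CA1 libraries rich in CA2 markers.

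Chrm5, the remaining Gq-coupled receptor, had a count in 22 of 27 CA1 libraries (median 2.37 CPM, highest 12.5), in 2 of 26 CA3 libraries with 1 count each, and in none of 28 DGC libraries. Of the CA1 libraries, a count was found in 5 of the 10 rich in CA2 markers (median 1.19 CPM). It was found in 17 of the 17 others (median 3.04 CPM). It passed the filter on low counts through its CA1 libraries alone, so its call against the other populations was partly set by the filter. Summed over libraries there were 92 counts in CA1 PNs and 2 in CA3 PNs, a ratio of 61.2 after scaling (95% interval 16.5 to 513). Against DGCs, where a count of 0 allows up to 0.102 CPM over the group (3 counts), Chrm5 was at least 30-fold higher in CA1 PNs. These intervals and floors cover counting error only, and not the spread between mice.

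Chrm4, a Gi/o-coupled receptor, had a lowest, median and highest CPM of 4.56, 15.9 and 28.01 in CA1 PNs, 8.51, 17.4 and 31.75 in CA3 PNs, and 0, 0 and 3.22 in DGCs. The CA1 and CA3 ranges lay over each other, and both lay above every DGC library, of which 16 of 28 had no count. The LFC over DGCs was 4.19 (SE 0.25, adjusted p = 9.17e-28) for CA1 PNs and 4.45 (SE 0.24, adjusted p = 6.51e-31) for CA3 PNs. Between CA1 and CA3 PNs the LFC was -0.26 (SE 0.14, adjusted p = 0.145), and it was 0.11 without the CA1 libraries rich in CA2 markers.

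Chrm2, the other Gi/o-coupled receptor and one known as a presynaptic autoreceptor and from interneurons, was low throughout, with a median of 5.15 CPM (0 to 18.3) in CA1 PNs and 2.89 (0 to 6.55) in CA3 PNs. In DGCs 1 of 28 libraries held 1 count. Chrm2 passed the filter on low counts through its pyramidal libraries, so its calls against DGCs were partly set by the filter. Summed over libraries, 158 counts for CA1 PNs, 120 for CA3 PNs and 1 for DGCs gave ratios over DGCs of 155 (95% interval 27.4 to 6150) and 88.4 (15.6 to 3520), where the intervals again cover counting error only and not the spread between mice. CA1 PNs were above CA3 PNs by an LFC of 0.72 (SE 0.24, adjusted p = 0.0122), the ranges overlapped, and the call was lost without the CA1 libraries rich in CA2 markers (0.34, adjusted p = 0.398). The mean log2 CPM of 9 inhibitory neuron markers was at a median of 4.48 in the CA1 libraries, 4.17 in the CA3 libraries and 3.402 in the DGC libraries. Their summed CPM did not follow this order, with group medians of 240.7 to 312.7 for CA1 PNs, 189.4 to 310.3 for CA3 PNs and 249.3 to 349.7 for DGCs. Gad1 had its highest median in DGCs (181 CPM, against 107 and 75.6), while each other marker had its lowest there. The part of these markers in the level of Chrm2 was not tested.

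**Figure D1:**
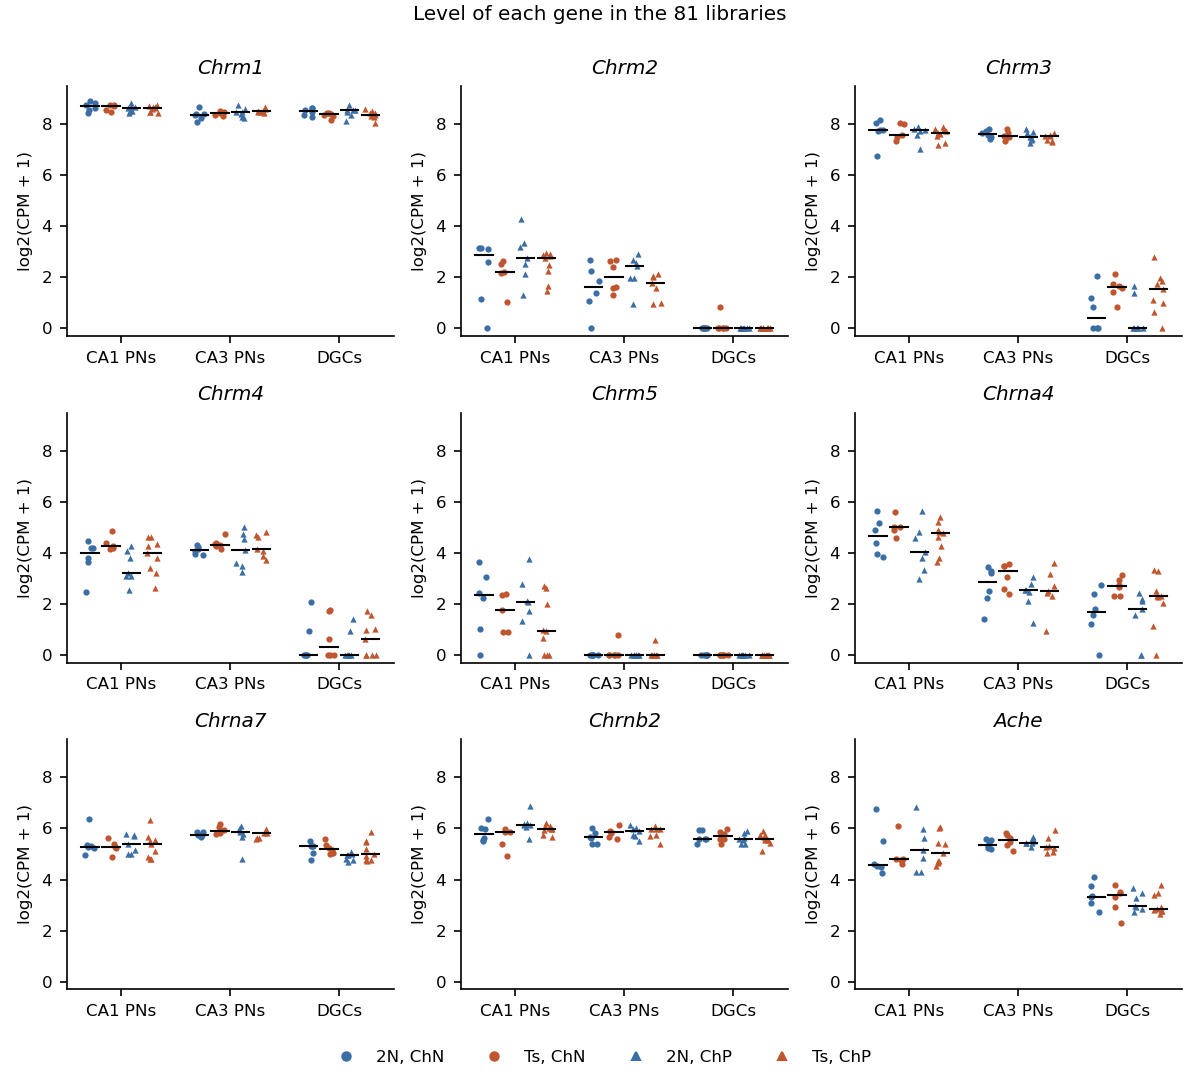
Each point is 1 of the 81 libraries, plotted as log2(CPM + 1) by population, genotype (colour) and diet (shape), with a line at each group's median. Chrm3, Chrm4 and Ache in DGCs lie below all pyramidal libraries, Chrm5 lies at 0 in 28 of 28 DGC libraries, and Chrm1, Chrna7 and Chrnb2 overlap across populations.

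Among the genes that open ion channels, Chrna4 separated CA1 PNs from the rest. Its lowest, median and highest CPM were 6.96, 26.6 and 49.0 in CA1 PNs, 0.943, 4.88 and 11.1 in CA3 PNs, and 0, 3.89 and 9.04 in DGCs. The CA1 range touched both others only at its lower end. CA1 PNs exceeded CA3 PNs by an LFC of 2.01 (SE 0.17, 4.03-fold, adjusted p = 2.22e-18) and DGCs by 2.82 (SE 0.18, 7.05-fold, adjusted p = 4.45e-24). These values include the 10 CA1 libraries rich in CA2 markers, where the median was 35.6 CPM. In the other 17 CA1 libraries it was 18.2 (6.96 to 31.7). CA3 PNs exceeded DGCs by 0.81 (SE 0.22, adjusted p = 0.00107), in 19 of 25 mice.

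Chrna7, the subunit of the homomeric and strongly calcium-permeable receptor, was highest in CA3 PNs. The lowest, median and highest CPM were 26.99, 56.0 and 70.7 in CA3 PNs, 26.9, 38.6 and 82 in CA1 PNs, and 24.45, 31.9 and 56.8 in DGCs. Although the ranges overlapped, CA3 PNs lay above CA1 PNs in 23 of 25 mice and above DGCs in 23 of 25. The LFC of CA1 over CA3 PNs was -0.43 (SE 0.085, adjusted p = 1.22e-05) and that of CA3 PNs over DGCs 0.71 (SE 0.085, adjusted p = 5.91e-12). CA1 PNs were above DGCs by 0.28 (SE 0.088, adjusted p = 0.00548) in 15 of 25 mice, a call that was lost without the 10 CA1 libraries rich in CA2 markers (0.031, adjusted p = 0.823) and with library totals (0.12).

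Chrnb2 encodes the beta subunit that joins Chrna4. Its medians were 62.4 CPM in CA1 PNs (29.0 to 116), 56.0 in CA3 PNs (40.7 to 69.35) and 47.4 in DGCs (34.0 to 62.7), with wide overlap. CA1 PNs were above DGCs by an LFC of 0.31 (SE 0.075, adjusted p = 0.00022) and CA3 PNs above DGCs by 0.18 (SE 0.074, adjusted p = 0.0309), while CA1 and CA3 PNs differed by 0.13 (approximate 95% interval -0.016 to 0.27, adjusted p = 0.164). Scaled by library totals, the CA1 value fell to 0.15 and no longer passed, and the CA3 value turned to -0.048. Without the CA1 libraries rich in CA2 markers, Chrnb2 was 0.11 above DGCs in CA1 PNs (adjusted p = 0.292).

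Ache, which clears acetylcholine, was low in DGCs. Its lowest, median and highest CPM were 18.3, 27.01 and 113.5 in CA1 PNs, 32.2, 41.8 and 60.2 in CA3 PNs, and 3.95, 8.09 and 16.1 in DGCs. Every pyramidal library was above every DGC library. The LFC over DGCs was 2.15 (SE 0.17, adjusted p = 5.96e-16) for CA1 PNs and 2.38 (SE 0.17, adjusted p = 3.06e-18) for CA3 PNs. The LFC of CA1 over CA3 PNs, -0.23 (SE 0.14, adjusted p = 0.191), did not pass over all libraries, and was -0.86 (adjusted p = 1.71e-14) without the 10 CA1 libraries rich in CA2 markers.

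In all, 5 of the 9 genes passed an adjusted p of 0.05 between CA1 and CA3 PNs, where 40.5% of all genes did. Between CA1 PNs and DGCs 9 of 9 passed and were higher in CA1 PNs, against 50.9% of all genes passing and 25.8% passing as higher. Between CA3 PNs and DGCs 7 of 9 passed and were higher in CA3 PNs, against 57.7% and 28%. Without Chrm5, whose place in the test rested on its CA1 libraries, the counts were 4 of 8, 8 of 8 and 7 of 8. These still hold Chrm2, whose place in the tests against DGCs rested on its pyramidal libraries. The median LFC of the 9 genes was 0.16, 2.82 and 0.81 in these comparisons, where over all genes it was 0.019, -0.020 and -0.052; without Chrm5 it was 0.14, 2.48 and 1.59. Libraries did not overlap for 3 of 9 genes (Chrm3, Chrm4 and Ache) against DGCs, for CA1 PNs (4.64% of all genes) and for CA3 PNs (8.1%), and for 0 of 9 between CA1 and CA3 PNs (1.95%). With 2N mice on ChN alone, 2 of 8 tested genes passed between CA1 and CA3 PNs, where 23.1% of all genes did, and 5 of 8 between CA1 PNs and DGCs, where 33.9% did. Between CA3 PNs and DGCs 5 of 8 passed, where 43.3% did.

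**Figure D2:**
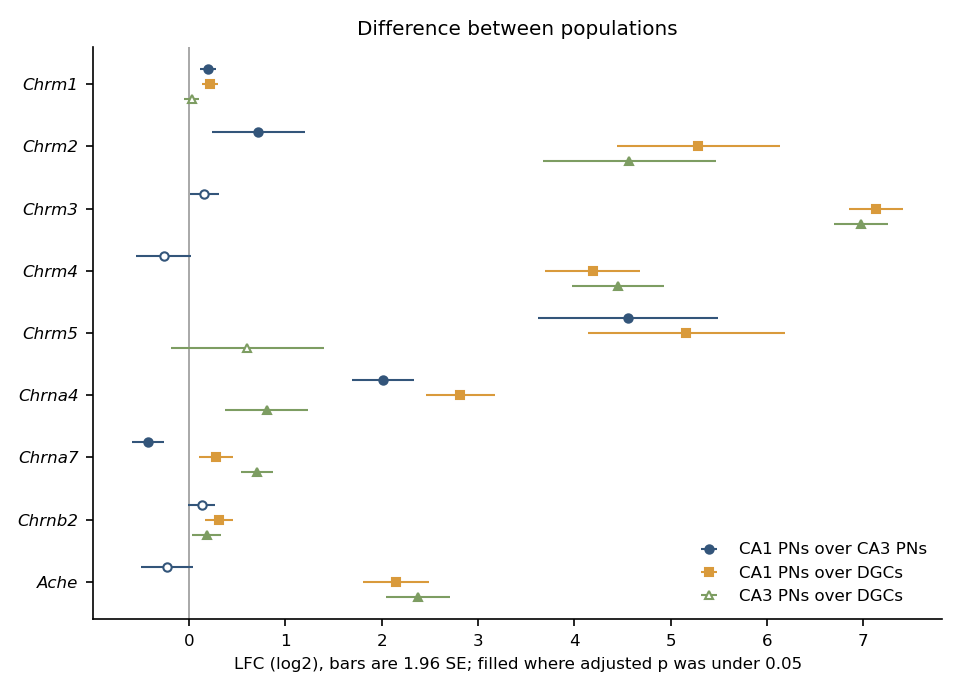
LFC between populations for each gene on the log2 scale, with bars of approximate 95% intervals and filled symbols where the adjusted p was under 0.05. Chrm3 lies near 7 against DGCs and near 0 between CA1 and CA3 PNs, and the fitted values of Chrm2 and Chrm5 against DGCs rest on groups with 1 and 0 counts; the Chrnb2 value of CA3 PNs over DGCs was below 0 with library totals.

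The stretch before the RefSeq start is shown for Chrm3 and Chrm4, which were near 0 in DGCs, beside Chrna7 and Chrnb2, which were present in every population. Upstream sequences were found in the RefSeq table (GRCm38.p6) for 8 of the 9 genes, Chrm1 being the other, and each matched GRCm39 exactly once. Bases inside the annotated gene were left off, the Chrm4 stretch lies well before the coding-only model of that gene, the coordinates are GRCm39, the sequence reads 5′ to 3′ on the gene's strand, and capitals mark GC boxes (GGGCGG on either strand) and E-boxes (CANNTG).
Chrm3 (chr13:10410884-10411089, minus strand): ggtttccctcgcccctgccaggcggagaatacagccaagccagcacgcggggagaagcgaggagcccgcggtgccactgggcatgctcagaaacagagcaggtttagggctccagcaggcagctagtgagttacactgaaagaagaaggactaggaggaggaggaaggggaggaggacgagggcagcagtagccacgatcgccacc
Chrm4 (chr2:91752284-91752533, plus strand): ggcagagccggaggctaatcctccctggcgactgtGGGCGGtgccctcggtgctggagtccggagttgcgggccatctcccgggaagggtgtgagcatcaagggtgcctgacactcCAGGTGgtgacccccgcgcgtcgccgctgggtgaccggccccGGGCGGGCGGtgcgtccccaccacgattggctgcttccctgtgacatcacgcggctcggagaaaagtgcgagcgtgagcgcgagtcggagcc
Chrna7 (chr7:62862323-62862524, minus strand): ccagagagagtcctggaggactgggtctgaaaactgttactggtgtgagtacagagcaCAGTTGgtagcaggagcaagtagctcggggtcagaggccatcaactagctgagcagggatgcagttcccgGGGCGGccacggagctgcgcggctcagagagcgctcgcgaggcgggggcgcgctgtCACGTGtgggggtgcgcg
Chrnb2 (chr3:89671954-89672189, minus strand): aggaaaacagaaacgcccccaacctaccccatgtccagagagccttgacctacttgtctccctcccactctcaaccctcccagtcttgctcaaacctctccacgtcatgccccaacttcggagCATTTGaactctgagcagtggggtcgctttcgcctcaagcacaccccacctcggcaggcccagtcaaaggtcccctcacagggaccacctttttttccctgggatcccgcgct

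Over the 250 bases before the RefSeq start, a GC box was found in 32.7% and an E-box in 66.2% of 32851 promoters of that length. The Chrm3 stretch held neither, with 10 CpG and 61.2% GC. Chrm4, which had the same DGC pattern in expression, held 3 GC boxes, of which a pair overlapped, 1 E-box, 26 CpG and 70% GC. Chrna7 held 1 GC box, 2 E-boxes and 25 CpG, and Chrnb2 held 1 E-box and 10 CpG, where the median promoter had 6 CpG and 52.4% GC. Chrna4 held 3 GC boxes with 24 CpG, Ache 4 GC boxes and 1 E-box with 25 CpG, Chrm2 1 GC box with 12 CpG, and Chrm5 neither motif with 2 CpG. A cAMP response element (TGACGTCA, 1.55% of promoters) or a TATA box (TATAAA, 12.4%) was in none of the 8. Chrm3 and Chrm4, alike across populations, thus did not share these letters in this window.

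To compare the receptors with each other, levels per transcript length (TPM, the authors' transcript abundance) were used as shares within a library. TPM itself was not compared between libraries, since 1 noncoding gene, Gm55098, took 0% to 64.9% of it. Of the summed TPM of the muscarinic receptors, Chrm1 held a median of 43.8% (34.6% to 63.4%) and Chrm3 47.2% (31.7% to 59.98%) in CA1 PNs. The remainder there was Chrm4 at 5.93%, Chrm5 at 0.90% and Chrm2 at 0.51%. CA3 PNs had nearly the same makeup, with medians of 43.0% for Chrm1, 49.0% for Chrm3, 8.02% for Chrm4 and 0.32% for Chrm2. In DGCs Chrm1 held 98.9% and Chrm3 0.79%. The Gq-coupled pair of Chrm1 and Chrm3 was thus at near parity in the pyramidal populations, with a median TPM ratio of Chrm3 to Chrm1 of 1.077 in the CA1, 1.17 in the CA3 and 0.0080 in the DGC libraries. The deposited length of Chrm3 varied between libraries from 790 to 4336 bases, so the share depends on it: by expected counts with no length, Chrm1 held 62.3% and Chrm3 34.0% in CA1 PNs and 63.1% and 33.01% in CA3 PNs.

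**Figure D3:**
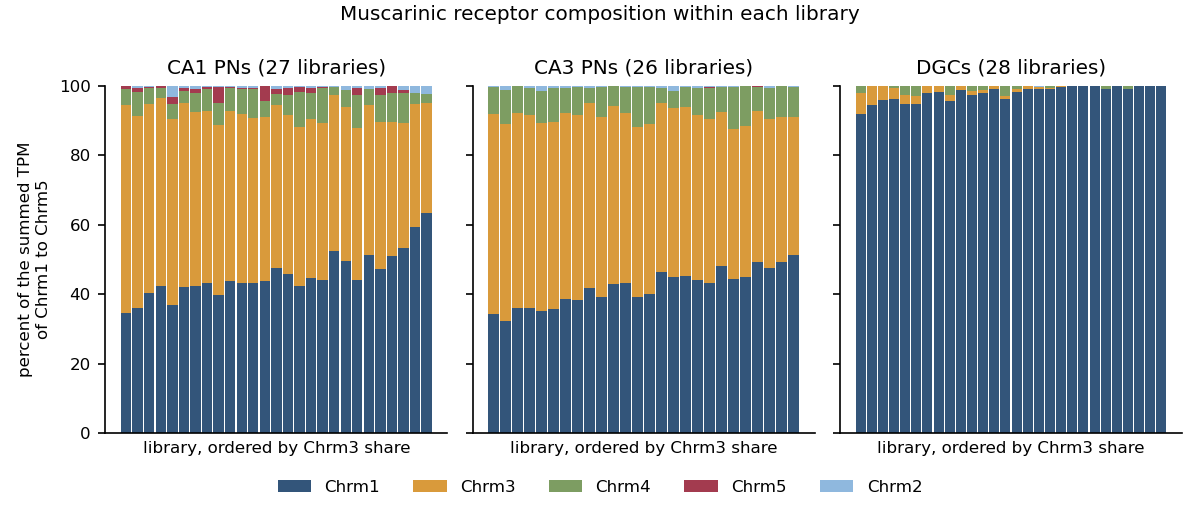
Each bar is 1 library, and its colours give the percent of the summed TPM of Chrm1 to Chrm5 held by each receptor, with libraries ordered by the Chrm3 share. Chrm1 and Chrm3 fill most of every CA1 and CA3 bar, and Chrm1 fills the DGC bars (median 98.9%).

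The nicotinic subunits were compared in the same way. The median TPM ratio of Chrna4 to Chrnb2 was 0.75 for CA1 PNs (0.16 to 2.495), 0.17 for CA3 PNs (0.072 to 0.50) and 0.20 for DGCs (0 to 0.85). Per length, Chrna4 was therefore closest to its partner Chrnb2 in CA1 PNs, with ranges that overlapped. The ratio of Chrna7 to Chrnb2 had medians of 2.17, 3.30 and 1.961 in the same order, so per length Chrna7 exceeded Chrnb2 in all 81 libraries (lowest ratio 1.22). These ratios depend on the deposited lengths, with medians of 2147 bases for Chrna7 and 6209 for Chrnb2, and a range of 779 to 4565 for Chrna4. Summed expected counts with no length were 1290 for Chrna7 and 1855 for Chrnb2 in CA1 PNs, 2240 and 2238 in CA3 PNs, and 1032 and 1458 in DGCs.

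Within CA1 PNs the levels of several genes went with those of the CA2 markers. The 10 rich libraries (2 of 6 2N ChN, 1 of 5 Ts ChN, 3 of 7 2N ChP, 4 of 9 Ts ChP) had a median of 7.16 for the CA2 list and 6.88 for the 5 CA1 markers, where the other 17 had 2.60 and 7.71. The CA3 markers were also higher in the rich libraries, at 4.06, 4.52 and 6.71 (lowest, median, highest) against 1.59, 2.37 and 3.13. Ache ranged over 41.1, 62.3 and 113.5 CPM (lowest, median, highest) in the rich libraries and 18.3, 24.0 and 34.55 in the others, with no overlap. Chrna4 also stood higher in the rich libraries, at a median of 35.6 CPM (22.7 to 49.0) against 18.2 (6.96 to 31.7), and so did Chrnb2, at 69.8 (62.4 to 116) against 56.8 (29.0 to 69.3). The median of Chrna7 was higher there too, at 47.45 CPM (27.1 to 82) against 37.1 (26.9 to 52.6), with wide overlap. Chrm3 and Chrm4 went the other way. Chrm3 had a median of 175 CPM (107 to 226) in the rich libraries against 224 (180 to 288), and Chrm4 9.05 (4.56 to 17.4) against 18.2 (7.51 to 28.01). Chrm5 had a count in 5 of the 10 rich and in 17 of the 17 other libraries, at medians of 1.19 and 3.04 CPM. Chrm1 hardly differed, at medians of 404 and 402 CPM. Over the 27 libraries, which share the capture and the TMM scale, Pearson's r with the mean log2 CPM of the CA2 list was 0.94 for Ache, 0.62 for Chrna4, -0.65 for Chrm4 and -0.79 for Chrm3. With the CA3 list it was 0.89, 0.58, -0.62 and -0.80 in the same order. For Chrna7 it was 0.55 with the CA2 list and -0.79 with the CA1 list. Ache was at -0.78 with the CA1 list, 0.88 with excitatory neuron, 0.66 with oligodendrocyte and 0.027 with microglia markers. Chrnb2 was at 0.60 with the CA2 list and 0.70 with vascular markers. The libraries were split by markers and not by these genes, and the part of CA2, CA3 or other cells in the values was not tested.

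**Figure D4:**
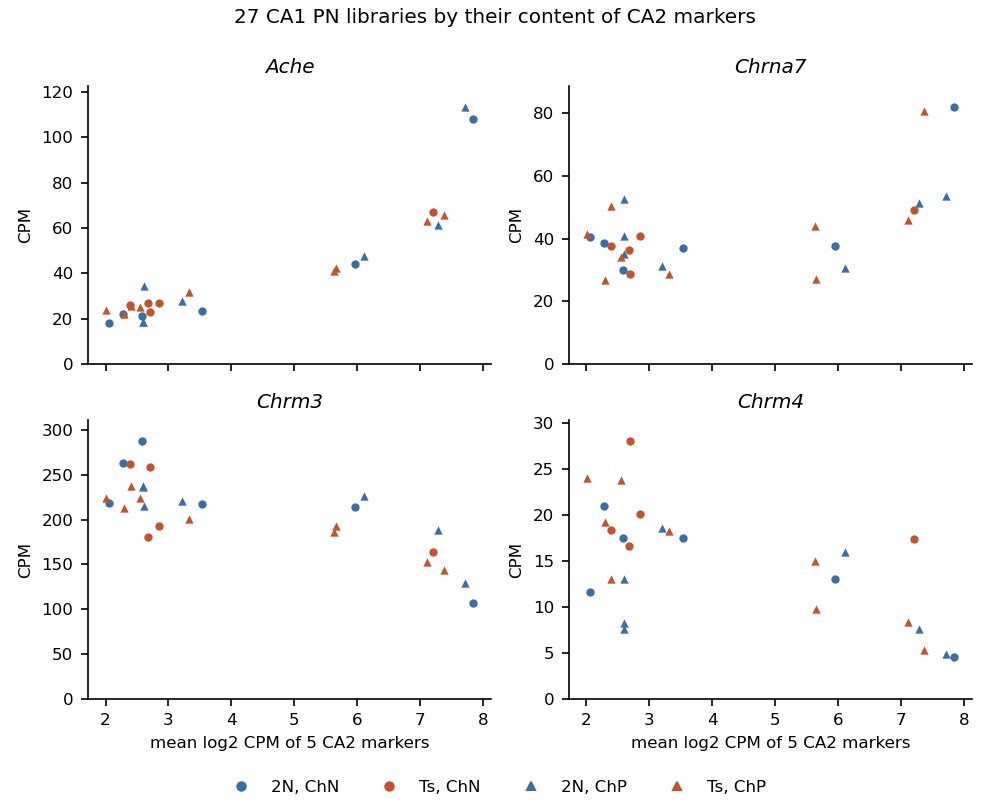
CPM of 4 genes in each of the 27 CA1 libraries against the mean log2 CPM of 5 CA2 markers, by genotype and diet. The 10 libraries above 5 on the horizontal axis have all Ache values above 41 CPM, and the 17 others lie below 35, while Chrm3 and Chrm4 are lower on the right.

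Whether trisomy altered these genes was asked in each population on each diet. No gene of the 9 passed an adjusted p of 0.05 in any of the 6 comparisons of Ts with 2N mice by edgeR's quasi-likelihood test, nor by DESeq2 or limma-voom. DESeq2 gave no adjusted p for Chrm2 in CA3 PNs on either diet, for Chrna4 in DGCs on ChN and for Chrm3 and Chrm4 in DGCs on ChP. On ChN the background was 0.00814% of 12286 genes for CA1 PNs, 0.662% of 13451 for CA3 PNs and 0.588% of 13442 for DGCs, and on ChP 0.0678% of 16225, 0.227% of 16721 and 0.423% of 16537. At an unadjusted p of 0.05, the level at which differentially expressed genes (DEGs) were named in the study, 0 of 9 genes passed in CA1 PNs on either diet (background 3.77% on ChN and 3.94% on ChP). In CA3 PNs 0 of the 8 genes tested passed on either diet (9.2% and 5.45%), Chrm5 having too few counts. In DGCs 2 of 5 tested genes passed on ChN (8.5%) and 3 of 7 on ChP (7.61%). The latter count holds Chrm3, which passed the filter on low counts mainly through its Ts libraries.

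Chrna4 passed the unadjusted level in DGCs on both diets. On ChN its lowest, median and highest CPM were 3.95, 5.54 and 7.89 in the 6 Ts libraries and 0, 2.20 and 5.66 in the 6 2N libraries. The ranges overlapped, and 1 2N library had no count. The LFC of Ts over 2N was 1.12 (SE 0.48, unadjusted p = 0.0245, adjusted p = 0.51), and without mouse 17-154 it was 0.83 and did not pass. On ChP the values were 0, 3.90 and 9.04 in 9 Ts libraries and 0, 2.49 and 4.32 in 7 2N libraries. The LFC was 1.15 (SE 0.55, unadjusted p = 0.0385, adjusted p = 0.596). These levels rest on summed counts of 43 and 17 on ChN and 40 and 11 on ChP.

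In the pyramidal populations the LFC of Chrna4 for Ts over 2N was 0.25 (SE 0.30) in CA1 PNs and 0.37 (SE 0.34) in CA3 PNs on ChN, and 0.31 (SE 0.34) and 0.30 (SE 0.38) on ChP. None of these passed. The difference of the ChN genotype effect between populations was itself tested with the mouse as a block and did not pass, at -0.79 (SE 0.55, unadjusted p = 0.154) for CA1 PNs minus DGCs and -0.75 (SE 0.59, unadjusted p = 0.21) for CA3 PNs minus DGCs. Over the 9 genes, 0 passed the test of this difference at an unadjusted p of 0.05 between CA1 and CA3 PNs (background 3.66%, and 0% at an adjusted p), between CA1 PNs and DGCs (4.9% and 0%) and between CA3 PNs and DGCs (4.33% and 0.0224%), and Chrm5 could not be estimated. Without the 10 CA1 libraries rich in CA2 markers, a choice made after seeing the data, the CA1 value for Chrna4 was 0.575 (unadjusted p = 0.0299, adjusted p = 0.609) on ChN and 0.81 (unadjusted p = 0.00907, adjusted p = 0.576) on ChP.

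Chrm1 also passed the unadjusted level in DGCs on ChN, lower in Ts mice, with 283, 333 and 346 CPM (lowest, median, highest) in Ts libraries and 309, 369 and 402 in 2N libraries. The LFC was -0.15 (SE 0.074, unadjusted p = 0.0447, adjusted p = 0.569), and it was -0.14 with both diets fitted together and no longer passed. It did not pass either without the DGC library of mouse 15-145, 15-147, 17-153, 17-157, 17-172, 17-173, 17-192 or 17-56 (-0.16 to -0.12). On ChP the LFC of Chrm1 was -0.12 (SE 0.070, unadjusted p = 0.0995). Its difference between CA3 PNs and DGCs in the ChN genotype effect was 0.20 (SE 0.13, unadjusted p = 0.109).

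Chrm3 in DGCs was at a few counts per library. On ChN a count was found in 6 of 6 Ts and 3 of 6 2N libraries (15 and 6 counts in sum), where the gene was under the filter and had no test. On ChP it was found in 8 of 9 Ts and 2 of 7 2N libraries (17 and 3 counts), with an LFC of 1.72 (SE 0.82, unadjusted p = 0.0372, adjusted p = 0.591). Chrm3 entered this fit of both diets mainly through its Ts libraries, so the result was partly set by the filter. Ts libraries ranged from 0 to 5.92 CPM and 2N libraries from 0 to 2.16, so the groups overlapped, and all lay below the 107 CPM of the lowest pyramidal library. Chrna7 in DGCs on ChP was at 25.1, 31.4 and 56.8 CPM in Ts and 24.45, 29.9 and 33.2 in 2N libraries, with an LFC of 0.34 (SE 0.16, unadjusted p = 0.0397, adjusted p = 0.602) where the ChN value was -0.0028 (SE 0.16). With limma-voom none of Chrm3, Chrna4 and Chrna7 passed in DGCs on ChP.

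Marker sums of other cell types were compared by genotype in DGCs as well. That of 5 CA1 markers was 39.1, 45.8 and 75.65 (lowest, median, highest) in 2N and 31.95, 34.2 and 40.5 in Ts libraries on ChN, and 36.3, 51.7 and 76.4 against 27.4, 41.4 and 46.5 on ChP. Over the 28 DGC libraries Pearson's r with the mean log2 CPM of that list was -0.49 for Chrm3 and -0.46 for Chrna4. With the list of 5 CA3 markers it was 0.39 for Chrm3 and 0.31 for Chrna4. The sum of the CA3 markers was 119, 143 and 165 in 2N and 130, 149 and 188 in Ts libraries on ChN. On ChP it was 93.8, 131 and 155 against 123, 152 and 196. The summed CPM of 9 inhibitory neuron markers was 212, 265 and 318 (lowest, median, highest) in 2N and 276.5, 349.7 and 388 in Ts libraries on ChP, and 232, 282 and 329.9 against 233, 249 and 335 on ChN. The sum of 5 CA2 markers was 59.9, 66.9 and 105 in 2N and 78.8, 94.8 and 101 in Ts libraries on ChN, and 67.2, 79.7 and 95.9 against 73.8, 94.5 and 102.5 on ChP. Each of these markers had a count in every one of these groups, except the CA1 marker Spink8 in 2N libraries on ChP. Their part in the Chrna4, Chrna7 and Chrm3 values was not tested.

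**Figure D5:**
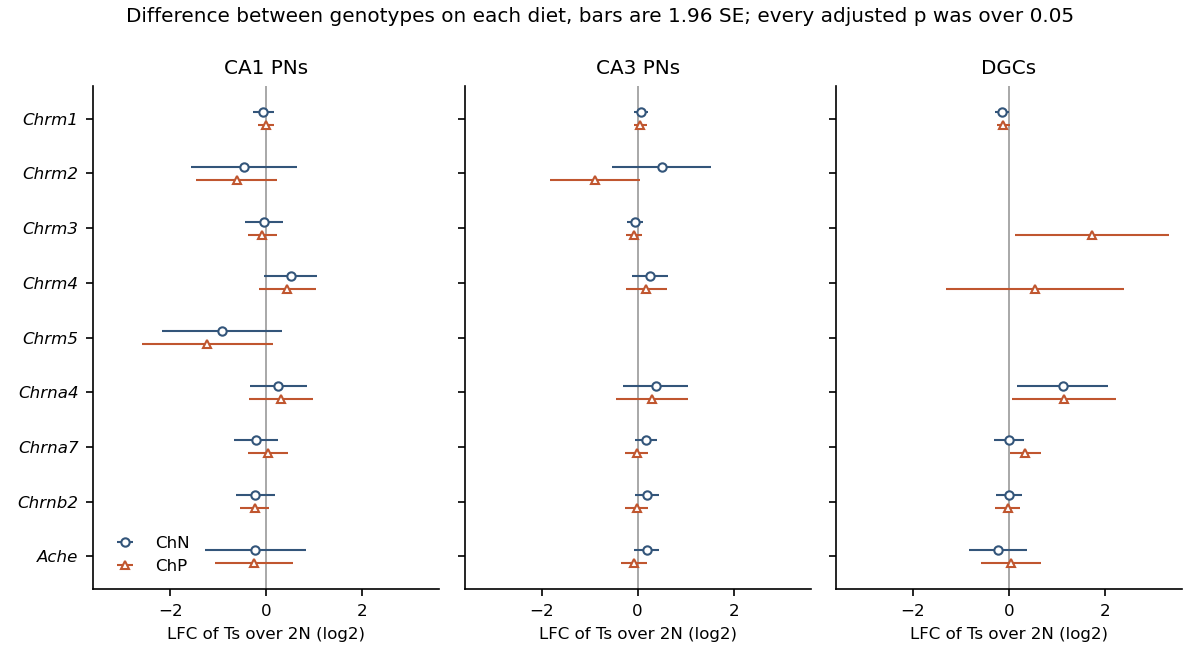
LFC of Ts over 2N for each gene by population and diet on the log2 scale, with bars of approximate 95% intervals; a gene under the count filter has no symbol. The Chrna4 bars in DGCs lie above 0 on both diets (1.12 and 1.15), most others cross 0, and no adjusted p was under 0.05.

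The remaining genotype values had intervals that included 0. Ache differed by -0.23 (95% interval -1.29 to 0.83) in CA1 PNs on ChN, where the 5 Ts libraries were at 23.1, 26.2, 26.9, 27.01 and 67.2 CPM and the 2N libraries at 18.3, 22.9 and 108 (lowest, median, highest). A single high library stood at the top of each group, and the ranges overlapped. In CA3 PNs, where the libraries were closer, Ache differed by 0.19 (-0.074 to 0.45) on ChN and -0.077 (-0.34 to 0.19) on ChP. Chrm4 was at 0.51 (-0.050 to 1.06) in CA1 PNs on ChN, from 16.6, 17.4, 18.3, 20.0 and 28.01 CPM in Ts and 4.56, 15.2 and 21.0 in 2N libraries, and at 0.44 (-0.15 to 1.02) on ChP. Without the 17-154 library, the CA1 values on ChN were 0.47 for Chrm4, 0.35 for Chrna4 and -0.20 for Ache, and none passed. Chrm2 was at 0.50 (SE 0.53) in CA3 PNs on ChN and -0.89 (SE 0.48) on ChP, and its genotype by diet interaction of -1.38 (SE 0.71, unadjusted p = 0.0535, adjusted p = 0.996) did not pass.

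Maternal choline supplementation was compared within each genotype, choline being the substrate from which acetylcholine is made. No gene of the 9 passed an adjusted p of 0.05 in these 6 comparisons or in the 3 genotype by diet interactions by edgeR, DESeq2 or limma-voom. In 2N mice the background was 0% for CA1 PNs, 0.012% for CA3 PNs and 0.00605% for DGCs, and in Ts mice and for the interactions it was 0%. At an unadjusted p of 0.05, 1 of 9 genes passed for CA1 PNs of 2N mice (background 3.27%), 0 of 8 for CA3 PNs (4.9%) and 0 of 7 for DGCs (5.82%). In Ts mice 0 of 9, 0 of 8 and 0 of 7 passed (3.05%, 4.19% and 3.81%), and for the interaction 0 of 9, 0 of 8 and 0 of 7 (3.22%, 4.87% and 3.97%).

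The gene that passed was Chrnb2 in CA1 PNs of 2N mice, with 46.75, 69.3 and 116 CPM (lowest, median, highest) on ChP and 44.3, 55.2 and 80.9 on ChN. The LFC of ChP over ChN was 0.35 (SE 0.17, unadjusted p = 0.0493, adjusted p = 1), the ranges overlapped, and the call was lost without any of 3 single libraries (the CA1 libraries of mice 16-357, 16-490 and 17-154). In CA1 PNs of Ts mice the value was 0.31 (SE 0.17, unadjusted p = 0.0774). The summed CPM of 5 astrocyte markers in the CA1 libraries of 2N mice was 148, 161 and 174 on ChP and 116, 138 and 149.6 on ChN. That of 5 microglia markers was 13.9, 22.8 and 27.9 against 5.42, 10.8 and 20.3. For 4 vascular markers it was 14.4, 25.5 and 31.0 against 14.1, 18.4 and 22.1. For 5 CA2 markers it was 97.3, 130 and 1511 against 68.2, 119.5 and 1429. Over the 27 CA1 libraries Pearson's r of Chrnb2 was 0.40 with the astrocyte and 0.067 with the microglia list. It was 0.70 with the vascular and 0.60 with the CA2 list. The library at 116 CPM (mouse 15-336) was rich in CA2 and low in CA1 markers. The part of all these markers was not tested. The LFC of Chrna4 for ChP over ChN lay between -0.53 and -0.35 in the 6 diet comparisons, and none passed. Chrm1 differed by -0.079 to 0.11 in the 6 diet comparisons, the narrowest span, and its 95% intervals stayed within -0.26 and 0.25.

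The pathway around the receptors was read from a list of 69 other genes of nicotinic subunits, chaperones, acetylcholine handling and muscarinic signalling, of which 55 were tested between populations. Of these, CA1 PNs had 17 at a higher and 20 at a lower level than CA3 PNs, and against DGCs 38 genes passed as higher and 7 as lower for CA1 PNs and 32 and 7 for CA3 PNs. Of all genes 40.5%, 50.9% and 57.7% passed in these comparisons, 25.8% and 28% as higher than DGCs. The median LFC of the list over DGCs was 0.68 for CA1 and 0.52 for CA3 PNs, where over all genes it was -0.020 and -0.052. In the Gq arm 16 of 18 genes were higher in CA1 PNs than DGCs and 1 lower, and in the Gi/o arm 10 of 16 were higher and 3 lower.

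Chrna5, an accessory subunit of Chrna4 and Chrnb2 receptors, was at 17.3 CPM in the median CA1 library and at 0 in the median CA3 and DGC libraries, with an LFC of 5.81 over CA3 PNs (SE 0.30) and 5.05 over DGCs (SE 0.30). Like Chrna4 it was highest in CA1 PNs, and it had a count in 24 of 27 CA1, 4 of 26 CA3 and 9 of 28 DGC libraries. Lypd1, a prototoxin that binds nicotinic receptors, had medians of 134 CPM for CA1 PNs, 3.13 for CA3 PNs and 101 for DGCs, an LFC of 4.70 for CA1 over CA3 PNs (SE 0.29) and -4.46 for CA3 PNs over DGCs (SE 0.29). The prototoxin Lypd6b was at 0.60, 1.84 and 0 CPM, with an LFC of -0.9998 for CA1 over CA3 PNs (SE 0.39) and 2.94 for CA3 PNs over DGCs (SE 0.47).

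In the Gq arm Kcnq5, a channel subunit of the M-current that muscarinic receptors close, had medians of 95.35, 189.9 and 3.52 CPM in CA1 PNs, CA3 PNs and DGCs. Its LFC over DGCs was 4.97 for CA1 (SE 0.21) and 5.74 for CA3 PNs (SE 0.20). Plcb3 went the other way at 1.79, 3.65 and 4.63 CPM, with an LFC of CA1 PNs over DGCs of -1.395 (SE 0.26).

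Among genes of the Gi/o arm the calcium-stimulated cyclase Adcy1 was lowest in CA3 PNs, at 818.5, 104 and 2705 CPM, with LFCs of 3.23 for CA1 over CA3 PNs (SE 0.12), -1.42 for CA1 PNs over DGCs (SE 0.11) and -4.64 for CA3 PNs over DGCs (SE 0.12). Adcy8 was at 38.6, 6.69 and 16.9 CPM, -1.43 for CA3 PNs over DGCs (SE 0.18). Rgs6, which speeds the turning off of Gi/o, was lower in CA1 than in CA3 PNs (LFC -1.26, SE 0.23) and DGCs (-1.43, SE 0.23), and Arrb1, an arrestin of receptor desensitization, was lower in CA1 than CA3 PNs (-1.37, SE 0.062). All of these named differences passed an adjusted p of 0.05, and they were among the 3 higher and 3 lower with the largest LFC in each comparison.

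Genes of cholinergic neurons, which make acetylcholine, load it into vesicles or take up choline, were at or near 0. Chat had a count in 1 of 81 libraries, Slc5a7 in 2 and Slc18a3 in none, and Chrna6, Chrna9, Chrnb3 and Chrnd had none. Bche, the other cholinesterase, was at medians of 0.79, 0.47 and 0 CPM.

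With genotype, Arrb1 passed an adjusted p of 0.05. It was lower in Ts than 2N CA3 PNs on ChN, with an LFC of -0.37 (SE 0.094, adjusted p = 0.0483). In CA1 PNs on either diet, and in CA3 PNs and DGCs on ChP, no pathway gene passed. By name, those with a small unadjusted p in these were Gnai1 (0.31) and Adcy9 (-0.24) in CA1 PNs on ChN, Bche (1.72) and Arrb2 (0.36) in CA1 PNs on ChP, Rgs4 (0.36) and Adcy9 (-0.22) in CA3 PNs on ChP and Lynx1 (0.42) in DGCs on ChP, as LFC. With diet none passed, and the smallest unadjusted p, 0.000315 (adjusted p = 1), was that of the genotype by diet interaction of the prototoxin Ly6e in DGCs, at -0.79 (SE 0.21).

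The genes whose log2 CPM was most like that of each receptor over the 81 libraries were found among 10879 genes with a mean of at least 5 CPM. Chrm3 was most like Neurod6 (Pearson's r 0.99), and Dkk3 was among the genes most like Chrm4 (0.94). With each population's mean removed these values were 0.15 and 0.31, so the likeness lay mainly between populations. Ache was most like Brinp2 (0.95) and Kif1b (0.95), and kept 0.72 and 0.71 within populations. Chrna4 was most like Plpp6 (0.86) and Actb (0.84), Chrna7 like Srgap3 (0.77) and Agtpbp1 (0.76), Chrm1 like Chpf (0.70) and the chloride transporter Slc12a5 (0.67), and Chrnb2 like Srgap2 (0.605) and Stxbp5l (0.60). Chrm2 and Chrm5 had a mean under 5 CPM and were left out. The libraries share populations, mice and depth, so these values are a description.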

How the data were processed

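The 9 genes and all gene lists were chosen with earlier results of these data known. The authors prepared total RNA libraries (SMARTer Stranded Total RNA Pico v3), aligned reads with STAR and deposited RSEM expected counts, TPM and lengths per gene for each library and expected-count matrices for each population. FastQC 0.11.9, Trimmomatic 0.39 and Picard 2.26.2 are named in the submitters' processing notes with GRCm39 and, with no role given, mm10. TPM values deposited by the authors were used only as shares and ratios within a library. The 81 matrix columns matched the library files (tolerance 1e-09), and 0.784% of expected counts were not whole and were rounded.

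Genes had to exceed 0.1 CPM in 10 or more of the fitted libraries (in all of them where there were fewer). They were scaled by TMM factors (0.869 to 1.12) and tested with edgeR 4.0.16 (quasi-likelihood, R 4.3.3), with the mouse as a block between populations. Ts and 2N on ChN were fitted per population, and the ChP, diet and interaction contrasts in a fit of 4 groups. The study's covariates (RNA concentration and alignment percentages) were not used here. Calls were adjusted p under 0.05 (Benjamini-Hochberg) and, for genotype and diet, also unadjusted p under 0.05. A plotted or correlated log2 CPM used a prior count of 2 where not given as log2(CPM + 1). Alternatives were DESeq2 1.42.0, limma-voom (limma 3.58.1), 1 surrogate variable (sva 3.50.0), other filters and scalings, and fits without single libraries; 7 were added after seeing the data. The tests were tried on simulated data.

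The numbers of libraries pair populations because they came from the same mice. Deviations from group means correlated at a median r of 0.072 (-0.015 to 0.18, 23 of 78 pairs over 0.1) within mice and -0.0034 between mice, over 9294 genes. Libraries of 1 group came from separate mice.

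All 9 genes were named. Of the pathway list, the 3 higher and 3 lower genes with the largest LFC (adjusted p under 0.05, mean of at least 1 CPM) were named in each population comparison, and in the others those with adjusted p under 0.05 or up to 2 with the smallest unadjusted p under 0.05. The 2 most alike genes were named for each receptor with a mean of at least 5 CPM. Results of 1 gene that these rules name are not reported here. The 95% intervals of an LFC are its SE times the normal quantile on either side. Depth limits the low genes, since 1 count was worth up to 2.49 CPM.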

Additional observations from a re-analysis of the deposited data

Results flagged for a closer look

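Groups of 4 to 10 libraries were tested gene by gene. Of 99 such groups, 11 held a library whose gap to its nearest neighbour was large for the group's range (Dixon's criterion). In each of the 11 the highest library stood apart. The criterion's chance rate of about 1 in 20 assumes normally distributed values. CPM of low genes is not so distributed, and where a single library held a count the gap equalled the range. The 11 groups therefore cannot be set against that rate. In CA1 PNs, Ache was at 108 CPM in 2N mouse 17-21 on ChN (next 44.2) and at 67.2 in Ts mouse 16-357 on ChN (next 27.01). Chrna7 was at 82 CPM in the CA1 library of mouse 17-21 (next 40.4) and at 80.5 in that of Ts mouse 16-272 on ChP (next 50.4). Chrnb2 was at 116 CPM in CA1 PNs of 2N mouse 15-336 on ChP (next 74.1). These 4 CA1 libraries were all among the 10 rich in CA2 markers, whose part in the values was not tested.

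The other values lay at or near a few counts, with 1 exception. Chrm4 was at 25.6 CPM in CA3 PNs of Ts mouse 16-357 on ChN (next 19.7). In DGCs, Chrm2 was at 0.789 CPM in Ts mouse 17-153 on ChN (others 0), Chrm3 at 5.92 in Ts mouse 16-206 on ChP (next 2.93) and Chrm4 at 3.22 in 2N mouse 15-147 on ChN (next 0.943). Chrm5 in CA3 PNs was at 0.736 CPM in Ts mouse 17-192 on ChN and at 0.506 in Ts mouse 16-206 on ChP, with 0 in the others of each group.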

How the results depend on the processing

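No setting that was run gave a genotype or diet call at an adjusted p of 0.05 for any of the 9 genes. Single libraries were left out of every Ts over 2N comparison on ChN (11 or 12 fits each) and, for the 4-group fit, only the 5 Ts ChN libraries of CA1 PNs in turn; these gave 0 to 0. Of the population counts, 5 of 9 genes between CA1 and CA3 PNs became 3 of 7 tested with edgeR's filterByExpr (59.9% of all genes). With 2N mice on ChN alone, which holds fewer libraries, the count was 2 of 8 tested (23.1%). Between CA1 PNs and DGCs, 9 of 9 became 7 of 7 tested with filterByExpr (70.8%) and 5 of 8 tested with 2N mice on ChN (33.9%). Between CA3 PNs and DGCs, 7 became 5 of 7 tested with filterByExpr (76.8%) and 5 of 8 tested with 2N mice on ChN (43.3%). With library totals, Chrm1, Chrna7 and Chrnb2 lost their calls for CA1 PNs over DGCs. Chrna7 and Chrnb2 also lost them without the CA1 libraries rich in CA2 markers. Without the replicate block for the mouse the population counts were 5, 9 and 7 and those of the differences between populations 0, so the block changed no count.

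Counts at an unadjusted p under 0.05 moved more. For Ts over 2N on ChN in CA1 PNs 0 became 1 with 1 surrogate variable, without the library of 17-21 and without the 10 rich in CA2 markers, and 2 without 17-21 and 17-154. In DGCs 2 became 1 with 1 surrogate variable, DESeq2, both diets in 1 fit, filterByExpr, limma-voom and no filter. On ChP in CA1 PNs 0 became 1 with the CA2 markers as a covariate, limma-voom and without the 3 libraries low in CA1 markers, and 2 without the 10 rich ones, and in DGCs 3 became 1 with filterByExpr and 0 with limma-voom. For diet in 2N CA1 PNs 1 became 2 with the CA2 covariate and 0 with DESeq2, limma-voom, without the 3 low libraries and without 17-154. In 2N CA3 PNs 0 became 2 with limma-voom. In Ts CA1 PNs 0 became 1 with 1 surrogate variable, the CA2 covariate, limma-voom and without the 3 or the 10 libraries, and in Ts CA3 PNs 1 with the 15-145 library under its own label. The CA3 interaction count of 0 became 1 with 1 surrogate variable, library totals and limma-voom. Leaving out 1 library gave 0 to 1 on ChN in CA1 PNs (1 without 17-172 or 17-21) and CA3 PNs (1 without 17-21), 1 to 2 in DGCs and 0 to 1 for diet in CA1 PNs of each genotype; the LFC in DGCs ran from 0.83 to 1.49 for Chrna4 and -0.19 to -0.12 for Chrm1, and in CA1 PNs, over those 5 fits only, from 0.34 to 0.36 for the diet value of Chrnb2. The cause of these moves was not tested.

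Directions turned only for small or low values. Between CA3 PNs and DGCs, Chrm1 was -0.041 with DESeq2, -0.026 with filterByExpr, -0.20 with library totals and -0.16 with 2N mice on ChN. Chrm5 was -0.37 with DESeq2 and -0.41 with limma-voom, and Chrnb2 -0.048 with library totals and -0.059 with 2N mice on ChN. Without the 10 libraries rich in CA2 markers, the LFC of CA1 over CA3 PNs was 0.11 for Chrm4 and -0.046 for Chrnb2. By expected counts with no length, the muscarinic shares were 62.3%, 34.0% and 2.40% for Chrm1, Chrm3 and Chrm4 in CA1 PNs and 63.1%, 33.01% and 3.36% in CA3 PNs. Over all LFC values of single genes, 321 kept direction and side of the threshold, 43 lost it, 10 gained it and 10 turned.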
